A study of Mus musculus with 15 samples.

Results

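The MHC class II presentation genes in tumor-associated macrophages (TAMs) were taken as the 8 rows of an FPKM table whose symbol is Ciita, H2-Aa, H2-Ab1, H2-Eb1, Cd74, H2-DMa, H2-DMb1 or H2-DMb2. They are 8 of 55335 genes listed, and all 8 were among the 11419 genes that averaged at least 1 FPKM over the samples and were tested. The FPKM is a count of fragments divided by transcript length and by the fragments mapped in the library, so levels of different genes may be set side by side. RNA-seq was performed on TAMs isolated by FACS, a sort that uses antibodies to CD11b and F4/80, from orthotopic hepatocellular carcinoma (HCC) in C57BL/6 mice. The tumors grew in the liver from inoculated Hepa1-6 hepatoma cells of the mouse, which had been infected with a control lentivirus, a miR-144 lentivirus or a miR-451a lentivirus. Each of these 3 groups had 5 samples, and the labels call all samples untreated. The ages of the mice are not given in the sources used here, and the miRNAs were overexpressed in the tumor cells, not in the sequenced macrophages. No label says whether the 5 samples of a group came from separate mice, so p-values measure the spread between these samples, which may be technical. The study's legend for this sequencing gives a smaller n per group than the samples listed, so some samples may share an animal, and p-values would then be too small.

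MHC class II molecules carry peptides from ingested proteins to the surface of antigen-presenting cells, where CD4+ T cells read them. The alpha and beta chains assemble in the endoplasmic reticulum with the invariant chain, encoded by Cd74, which blocks the groove and leads the complex to endosomes. There, proteases trim the invariant chain to a short fragment, H2-DM exchanges it for peptide, and the whole gene set is switched on by the coactivator CIITA. CIITA does not bind DNA itself but docks on the factors RFX, CREB and NF-Y, which occupy the X1, X2 and Y boxes of class II promoters. Macrophages hold this machinery at a low level until interferon-gamma induces Ciita.

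The promoters are shown because H2-Eb1, H2-DMb1 and H2-DMb2 carry the same boxes at nearly the same spacing. Whether the boxes bear on the group differences was not tested. Sequences come from the RefSeq promoter table (GRCm38.p6), which has entries for H2-Aa, H2-Eb1, H2-DMa, H2-DMb1 and H2-DMb2. Each is the stretch of 160 bases before the start site, 5′ to 3′ on the strand of the gene, and capitals mark the letters searched on both strands: an X1 core (ACNGATG), an X2 core (TGACG) and a Y core (ATTGG, or CCAAT on the other strand).
H2-Eb1, chr17:34305707-34305866, plus strand: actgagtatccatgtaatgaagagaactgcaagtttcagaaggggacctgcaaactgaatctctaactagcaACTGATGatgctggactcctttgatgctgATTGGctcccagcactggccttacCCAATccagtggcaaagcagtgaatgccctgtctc
H2-DMb1, chr17:34153031-34153190, plus strand: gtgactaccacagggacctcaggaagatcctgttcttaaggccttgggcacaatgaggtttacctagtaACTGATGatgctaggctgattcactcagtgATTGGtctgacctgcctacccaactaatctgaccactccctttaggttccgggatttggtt
H2-DMb2, chr17:34145089-34145248, plus strand: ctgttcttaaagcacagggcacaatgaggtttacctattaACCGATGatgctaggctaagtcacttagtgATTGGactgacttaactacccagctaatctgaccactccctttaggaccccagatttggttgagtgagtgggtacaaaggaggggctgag
H2-Aa, chr17:34287824-34287983, minus strand: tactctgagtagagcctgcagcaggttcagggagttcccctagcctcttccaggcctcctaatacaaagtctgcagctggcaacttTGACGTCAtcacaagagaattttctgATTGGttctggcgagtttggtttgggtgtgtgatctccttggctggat

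Counting the start site's upstream neighbor as -1, the X1 core lay at -88 to -82 in H2-Eb1, at -91 to -85 in H2-DMb1 and at -120 to -114 in H2-DMb2. The Y core followed after 22 bases in H2-Eb1 and after 23 bases in both H2-DMb genes. In H2-Aa the Y core at -48 to -44 stood 18 bases behind overlapping X2 cores on both strands at -74 to -67, with no X1 core in the 160 bases printed and one further upstream, at -232 to -226 on the other strand. H2-DMa has 2 start sites in the table, of which one had none of these cores within 250 bases and the other a Y core at -198 to -194. Among 32851 promoters of the same length (250 bases before and 50 after the start), 9.85% held the X1 core, 37.4% the Y core, 20.8% the X2 core and 3.65% both X1 and Y on either strand. The GAS element (TTCNNNGAA, which reads alike on both strands) was searched too and matched in H2-DMb2 at -218 to -210, upstream of the bases printed, in none of the other 4 genes, and in 8.30% of all promoters. The H2-DMb1 and H2-DMb2 promoters were identical at 208 of 247 aligned bases (84.2%). A match of letters is a description and not evidence of binding.

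All 8 genes were detected in all 15 samples, and Cd74 was by far the most abundant. Its mean was 842 ± 55.5 FPKM (SD, n = 5) in control TAMs, about 10 times that of H2-Ab1 (83.2 ± 10.7). The order was Cd74, H2-Ab1, H2-Aa, H2-Eb1, H2-DMb1, H2-DMa, Ciita and H2-DMb2 in each of the 3 groups. Ranges of the samples overlapped between H2-Ab1 and H2-Aa and between H2-DMa and Ciita in all groups, between H2-Aa and H2-Eb1 in both miRNA groups, and between H2-Eb1 and H2-DMb1 in the control group. The other neighbors in this order did not overlap.

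**Figure D1:**
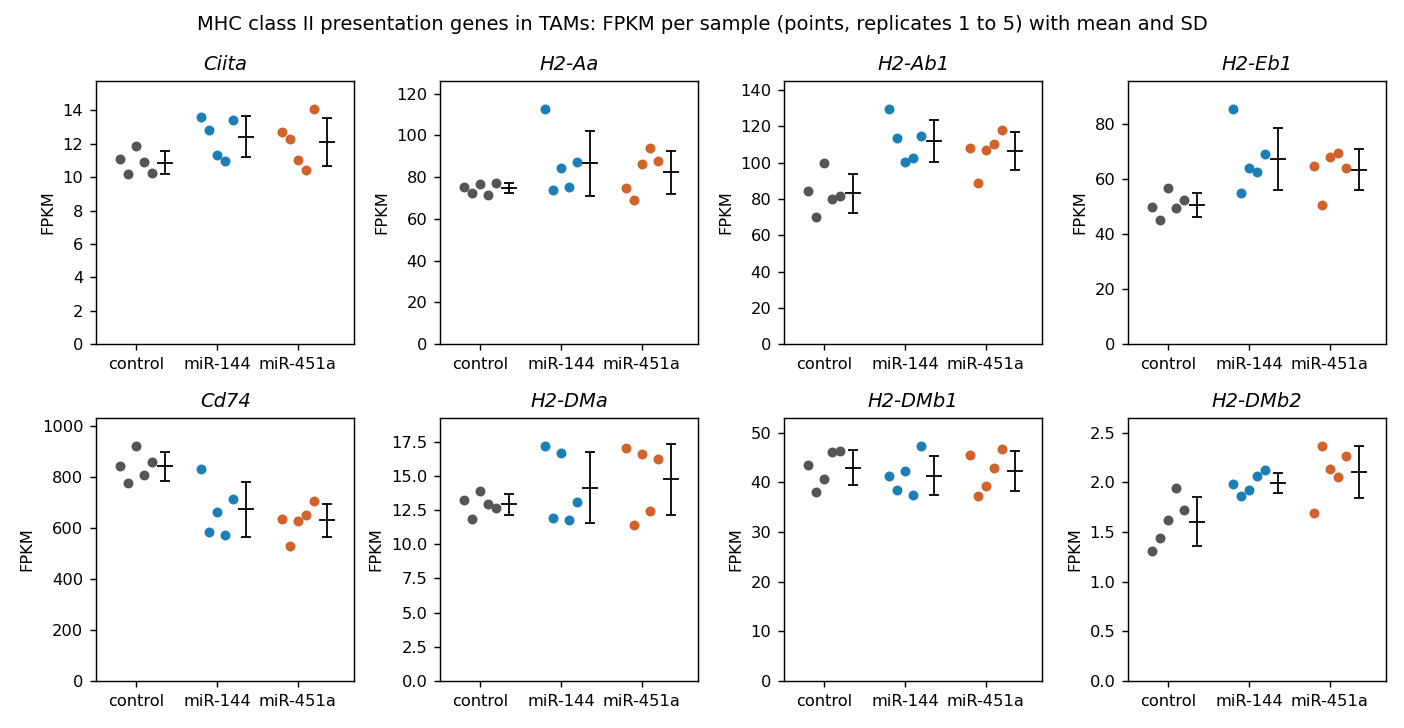
FPKM of the 8 MHC class II presentation genes (linear axes from 0) in each sample of the control, miR-144 and miR-451a groups, with points in the order of replicates 1 to 5 and a bar for the mean and SD. H2-Ab1 is above all control samples in the 5 miR-144 samples (lowest 100.3 FPKM, control highest 99.8), and Cd74 is below all control samples in the 5 miR-451a samples (highest 708 FPKM, control lowest 777), while H2-DMb1 covers nearly the same range in the 3 groups.

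The first question was whether the class II set differed between TAMs of miRNA-overexpressing tumors and TAMs of control tumors. In both comparisons 4 of the 8 genes passed the test, and they did not move one way: H2-Ab1, H2-Eb1 and H2-DMb2 rose, and Cd74 fell. Against control TAMs, 67.2% of all genes tested passed in the miR-144 group (47.1% higher, 20.1% lower) and 68.3% in the miR-451a group (48.1% higher, 20.3% lower), so that 4 of 8 is no more than the background. The median gene was higher by 0.13 on the log2 scale in the miR-144 group and by 0.14 in the miR-451a group, and the medians of the 8 genes were 0.19 and 0.15. Centring each sample on its median left 3512 genes higher and 3511 lower of those called in the miR-144 group, in place of 5376 and 2292, and 3577 and 3636 in the miR-451a group, in place of 5490 and 2314. Of the 8 genes it left 1 higher (H2-Ab1) and 2 lower (Cd74 and H2-DMb1) in the miR-144 group, and 1 lower (Cd74) in the miR-451a group. Differences below are limma's, on the log2(FPKM + 1) scale, with p-values adjusted by Benjamini-Hochberg over the 11419 genes, and both comparisons share the control samples.

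**Figure D2:**
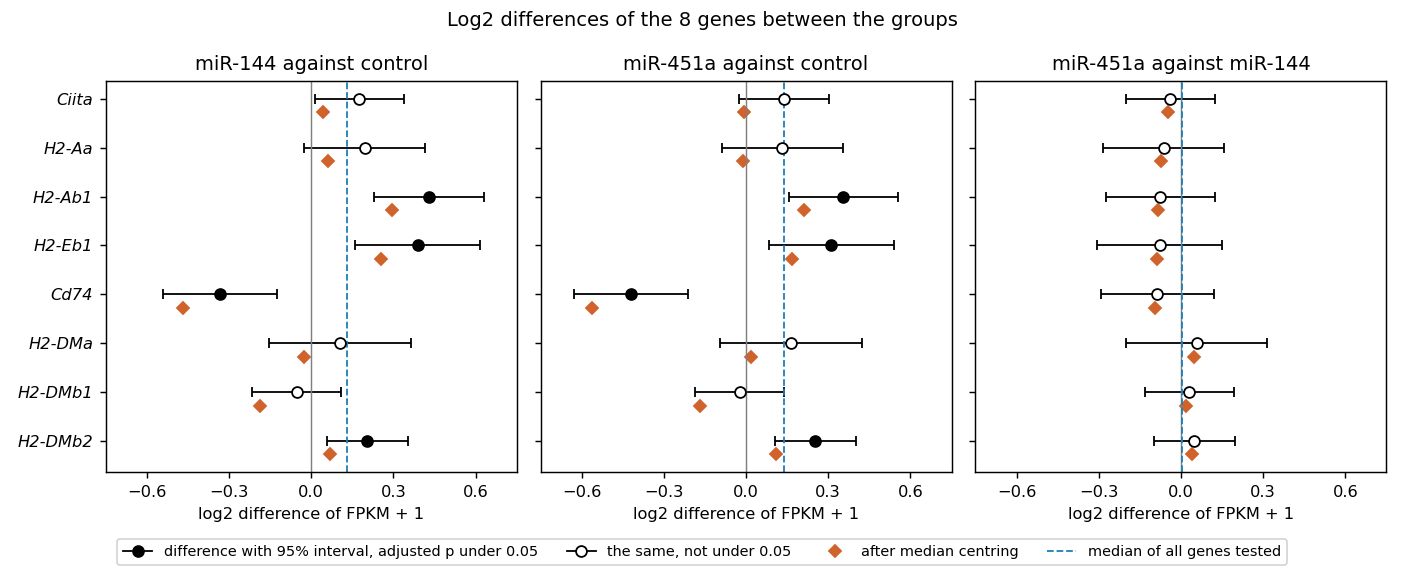
Log2 difference of FPKM + 1 for each gene in the 3 comparisons, with 95% intervals from limma, filled circles for an adjusted p under 0.05, diamonds for the value after median centring and a dashed line at the median of all genes tested. Cd74 is left of 0 in both comparisons with control (-0.33 and -0.42) and H2-Ab1 right of it (0.43 and 0.36), while median centring turns the sign of H2-DMa in the miR-144 group and of Ciita and H2-Aa in the miR-451a group, and every interval spans 0 between the miRNA groups.

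Ciita (chromosome 16, 10480059 to 10528418, plus strand; ENSMUSG00000022504) encodes the coactivator that switches on the class II genes. It was 11.1, 10.2, 11.9, 10.9 and 10.2 FPKM in control replicates 1 to 5, 13.6, 12.8, 11.3, 10.97 and 13.4 in the miR-144 group, and 12.7, 12.3, 11.0, 10.4 and 14.1 in the miR-451a group. In either miRNA group 3 samples were above every control sample and the others lay within the control range. The log2 difference was 0.18 (SE 0.08, adjusted p = 0.0545) in the miR-144 group and 0.14 (SE 0.08, adjusted p = 0.124) in the miR-451a group, and neither passed. Relative to the median gene these were 0.05 and 0.00055. With FPKM rescaled to TPM, which shifts the median gene to 0.22 and 0.23, both passed (0.26 with adjusted p = 0.0123, and 0.23 with adjusted p = 0.0228, limma). Ciita passed in 10 of 29 alternatives in the miR-144 group and in 3 of 29 in the miR-451a group. The former included the replicate block (0.18, adjusted p = 0.0463), a fit of only the 2 groups compared (0.18, adjusted p = 0.0342) and leaving out control replicate 3 (0.21, adjusted p = 0.0372), miR-144 replicate 3 (0.21, adjusted p = 0.0369) or 4 (0.22, adjusted p = 0.0246), or miR-451a replicate 4 (0.18, adjusted p = 0.0395) or 5 (0.18, adjusted p = 0.0349). The latter included leaving out miR-451a replicate 4 (0.18, adjusted p = 0.0408), while without miR-451a replicate 5 the difference was 0.09 (adjusted p = 0.314, limma). The gene overlaps Dexi on the opposite strand, and whether the counting used strand is not given in the sources used here.

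H2-Ab1 (chromosome 17, 34257689 to 34269419, plus strand; ENSMUSG00000073421), the beta chain of the I-A molecule, rose in both miRNA groups. Control samples 1 to 5 had 84.3, 70.3, 99.8, 79.8 and 81.7 FPKM. The miR-144 samples had 129.5, 113.6, 100.3, 102.5 and 114.9, and the miR-451a samples had 108.0, 89.1, 106.8, 110.2 and 118.2. All miR-144 samples were above all control samples, though only just at replicate 3, while miR-451a replicate 2 fell inside the control range. Group means rose 1.35-fold and 1.28-fold, with log2 differences of 0.43 (SE 0.09, adjusted p = 0.000852) and 0.36 (SE 0.09, adjusted p = 0.00349). Above the median gene this was 0.30 and 0.22, and after median centring the rise in the miR-451a group no longer passed (0.21, adjusted p = 0.0693). A larger absolute difference was found in 28.2% of all genes in the miR-144 group and in 37.7% in the miR-451a group.

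H2-Aa (chromosome 17, 34282744 to 34287823, minus strand; ENSMUSG00000036594) encodes the alpha chain that pairs with H2-Ab1, and it did not pass in either comparison. Its control samples were close together at 75.3, 72.6, 76.5, 71.6 and 77.4 FPKM. The miR-144 samples spread over 112.5, 73.9, 84.4, 75.2 and 87.1, and those of the miR-451a group over 74.8, 69.0, 86.3, 94.1 and 87.9. In each miRNA group 3 samples were above all control samples and the others lay within or below the control range. Differences were 0.19 (SE 0.10, adjusted p = 0.109) and 0.13 (SE 0.10, adjusted p = 0.271). Without miR-144 replicate 1, the highest sample, the first was 0.10, and on the TPM scale it was 0.27 and passed (adjusted p = 0.0232, limma). The second was 0.08 without miR-451a replicate 4 (adjusted p = 0.509) and 0.07 without replicate 4 of every group (adjusted p = 0.617, limma). Relative to the median gene H2-Aa differed by 0.07 and by -0.0051.

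H2-Eb1 (chromosome 17, 34305867 to 34316674, plus strand; ENSMUSG00000060586) encodes the beta chain of I-E, which C57BL/6 mice transcribe although their H2-Ea gene carries a deletion and no I-E alpha chain is made. Control samples had 50.1, 45.1, 56.9, 49.4 and 52.6 FPKM, and the H2-Ea-ps row was at 0 in every sample. Those of the miR-144 group had 85.6, 55.0, 64.3, 62.8 and 69.3, and those of the miR-451a group 65.0, 50.6, 68.2, 69.4 and 64.3. All but replicate 2 of either miRNA group were above every control sample. The rise was 1.33-fold (log2 difference 0.39, SE 0.11, adjusted p = 0.00492) and 1.25-fold (0.31, SE 0.11, adjusted p = 0.0181). After median centring neither passed (0.25, adjusted p = 0.0542, and 0.17, adjusted p = 0.196). The call in the miR-451a group was also lost without replicate 4 (0.27, adjusted p = 0.0866) or replicate 5 (0.32, adjusted p = 0.0539) of every group. Gm20513 overlaps the gene on the opposite strand.

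Cd74, the invariant chain, was the only one of the 8 genes that passed as lower before median centring. It kept its direction and its call under all 29 alternative settings in both comparisons. It lies on chromosome 18, 60803848 to 60812652, plus strand (ENSMUSG00000024610), and besides guiding class II molecules it is a surface receptor for MIF. Control samples had 842, 777, 923, 807 and 861 FPKM. In the miR-144 group values were 832, 585, 662, 572 and 716, and in the miR-451a group 637, 529, 629, 653 and 708. Every miR-451a sample was below every control sample, and so were 4 of the 5 miR-144 samples, while miR-144 replicate 1 lay inside the control range. The mean was 0.80 times that of control in the miR-144 group (log2 difference -0.33, SE 0.10, adjusted p = 0.00702) and 0.75 times in the miR-451a group (-0.42, SE 0.10, adjusted p = 0.00137). Relative to the median gene Cd74 was lower by -0.46 and -0.56 on the log2 scale. A larger absolute difference was found in 38.4% of all genes in the miR-144 group and in 31.1% in the miR-451a group. Genes with a higher value of the signed difference made up 87.8% and 89.9% of those tested. In sorted bulk samples, fewer cells that carry a transcript and less of it per cell cannot be told apart.

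H2-DM, the peptide editor, is a dimer of H2-DMa with H2-DMb1 or H2-DMb2. H2-DMa (chromosome 17, 34119541 to 34139101, plus strand; ENSMUSG00000037649) ranged from 11.8 to 13.9 FPKM in control samples, from 11.8 to 17.2 in the miR-144 group and from 11.4 to 17.1 in the miR-451a group. Its differences of 0.11 (SE 0.12, adjusted p = 0.458) and 0.16 (SE 0.12, adjusted p = 0.248) did not pass, and Brd2, Gm20493 and CR974462.4 overlap it on the opposite strand. The first was 0.04 without miR-144 replicate 1, 0.05 without miR-144 replicate 3 and 0.16 without miR-144 replicate 4, the second was 0.24 without miR-451a replicate 2, and none of these passed (adjusted p from 0.0757 to 0.810, limma). H2-DMb1 (chromosome 17, 34153072 to 34160230, plus strand; ENSMUSG00000079547) ranged from 38.0 to 46.3 FPKM, 37.6 to 47.3 and 37.2 to 46.6 in the 3 groups, with means of 43.0, 41.4 and 42.3. The groups overlapped almost wholly, and the differences of -0.05 (95% interval -0.22 to 0.11, adjusted p = 0.555, limma) and -0.02 (-0.19 to 0.14, adjusted p = 0.797) did not pass. The median gene rose meanwhile, so that H2-DMb1 was -0.18 and -0.16 from it, and after median centring the first passed as lower (-0.19, adjusted p = 0.0447). On the TPM scale the sign turned in both comparisons (0.0163 and 0.0585), and neither passed.

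H2-DMb2 (chromosome 17, 34143307 to 34151555, plus strand; ENSMUSG00000037548) was the least abundant of the set. Control samples had 1.31, 1.44, 1.62, 1.94 and 1.72 FPKM. The miR-144 samples had 1.98, 1.87, 1.93, 2.06 and 2.12, and the miR-451a samples had 1.69, 2.37, 2.14, 2.06 and 2.26. Control replicate 4 lay above miR-144 replicates 2 and 3, miR-451a replicate 1 lay inside the control range, and the other miRNA samples were above every control sample. The rise was 1.24-fold (log2 difference 0.20, SE 0.07, adjusted p = 0.0171) and 1.31-fold (0.25, SE 0.07, adjusted p = 0.00449). It did not pass after median centring (0.07, adjusted p = 0.420, and 0.11, adjusted p = 0.202) or quantile normalization (0.03, adjusted p = 0.709, and 0.07, adjusted p = 0.383). At this low level the added 1 FPKM makes differences smaller, and they were 0.30 and 0.37 with a pseudocount of 0.1 (adjusted p = 0.0162 and 0.00467) and 0.34 and 0.41 on the TPM scale (adjusted p = 0.00394 and 0.000859, limma). Of the 50-base stretches in the longest H2-DMb2 transcript, 30.9% also occur in other genes, mostly H2-DMb1 (25.2%), as do 27.2% of those of H2-DMb1, and the longest transcripts of the pair were identical at 94.6% of aligned bases. How the counting divided fragments between them is not given in the sources used here, so the H2-DMb2 values are uncertain.

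Few genes of the set had groups without any overlap. Of the 8 genes, 1 (H2-Ab1, higher) had no overlap between miR-144 and control samples, against 53.9% of the genes tested. Likewise 1 (Cd74, lower) had none between miR-451a and control samples, against 55.2%.

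The next comparison asked whether the miRNA overexpressed in the tumor cells made a difference. No gene of the set passed between miR-451a and miR-144 samples, none had an unadjusted p under 0.05, and none had groups without overlap (0.849% of all genes tested). With limma, 0.00% of the 11419 genes passed, 596 had an unadjusted p under 0.05 and the smallest adjusted p was 0.0752. Leaving out samples let a few genes pass: 2 without miR-144 replicate 4, miR-144 replicate 5 or miR-451a replicate 3, and 1 without miR-451a replicate 5. Without replicate 4 of every group 1 gene passed, and without replicate 5 of every group 3 did. None of these was a gene of the set. The differences ran from -0.09 for Cd74 (95% interval -0.29 to 0.12) to 0.06 for H2-DMa (-0.20 to 0.32). For H2-Ab1 the interval was -0.27 to 0.13, for H2-Eb1 -0.31 to 0.15 and for H2-DMb2 -0.10 to 0.20. These intervals leave room for differences about as large as some of those from control.

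Since partner genes are measured in the same sample, their FPKM ratios are free of any scaling between samples. The ratio of Cd74 to H2-Ab1, invariant chain against beta chain, did not overlap between control TAMs and either miRNA group. It divides a gene that passed as lower by one that passed as higher, so it restates those calls and adds no support. Of single genes, 53.9% (miR-144) and 55.2% (miR-451a) had no overlap with control, and ratios of genes outside the set were not tested. Control replicates 1 to 5 had 9.99, 11.1, 9.25, 10.1 and 10.5 Cd74 per H2-Ab1, the miR-144 samples 6.42, 5.15, 6.60, 5.58 and 6.23, and the miR-451a samples 5.90, 5.93, 5.89, 5.92 and 5.99. No miRNA sample came near the control range. The log2 ratio was lower by -0.77 in the miR-144 group and by -0.78 in the miR-451a group (two-sided exact permutation test, p = 0.00794 for each, the smallest that 5 against 5 samples allow, and 0.0317 after adjustment over the 12 ratio tests). Between the miRNA groups it differed by -0.01 (exact permutation p = 0.905, adjusted p = 0.905).

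**Figure D3:**
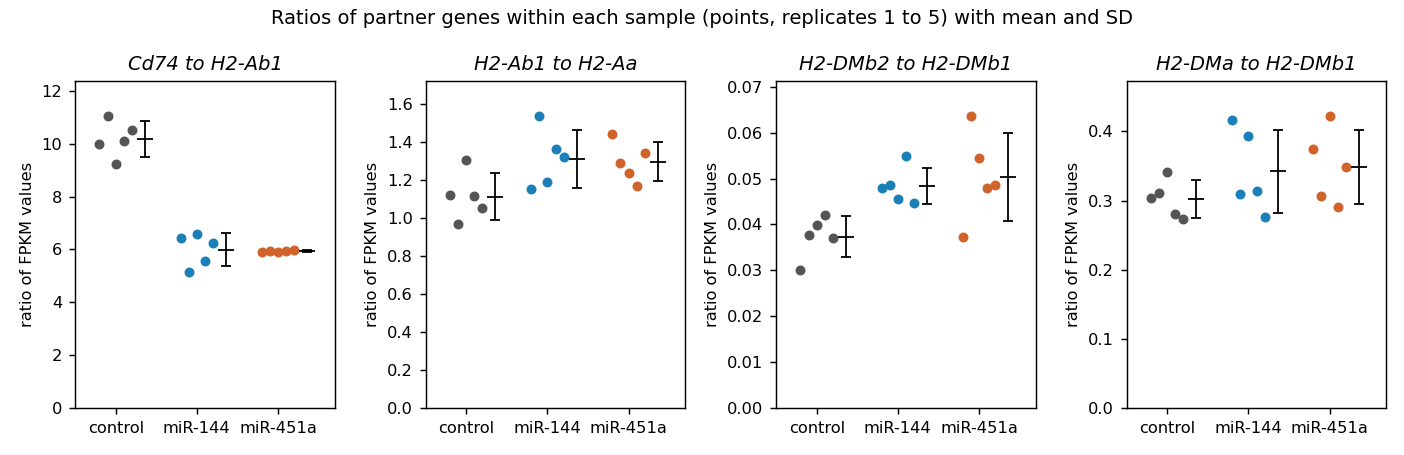
Ratios of FPKM values of partner genes within each sample (linear axes from 0), with points in the order of replicates 1 to 5 and a bar for the mean and SD of each group. Cd74 to H2-Ab1 runs from 9.25 to 11.1 in control samples, from 5.15 to 6.60 in the miR-144 group and from 5.89 to 5.99 in the miR-451a group, and H2-DMb2 to H2-DMb1 from 0.0301 to 0.0422 in control samples and from 0.0448 to 0.0549 in the miR-144 group, while the remaining ratios overlap with control.

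The beta to alpha chain ratio, H2-Ab1 to H2-Aa, was 1.11 ± 0.123 (SD, n = 5) in control samples, 1.31 ± 0.154 in the miR-144 group and 1.30 ± 0.104 in the miR-451a group. Neither shift passed (log2 differences 0.24 and 0.23, exact permutation p = 0.0476 and adjusted p = 0.0952 for each). For the H2-DM beta chains, H2-DMb2 to H2-DMb1 was 0.0374 ± 0.00454 in control samples, 0.0484 ± 0.00399 in the miR-144 group and 0.0504 ± 0.00970 in the miR-451a group. This was a rise of 0.38 on the log2 scale in the miR-144 group (exact permutation p = 0.00794, adjusted p = 0.0317), while the difference of 0.42 in the miR-451a group did not pass (exact permutation p = 0.0317, adjusted p = 0.0952). Leaving out any 1 of the miR-144 samples raised the adjusted p of the former to 0.0635. Leaving out miR-451a replicate 1 moved the latter to 0.52 (adjusted p = 0.0238), and leaving out control replicate 3 moved H2-Ab1 to H2-Aa in the miR-451a group to 0.28 (adjusted p = 0.0476). The ratio of H2-DMa to H2-DMb1 (0.302, 0.342 and 0.349) did not pass either (adjusted p = 0.321 and 0.190).

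Within groups, the classical chains and the invariant chain varied together from sample to sample. The deviation of each of the 15 samples from its group mean was correlated for the 28 pairs of genes, with p from 100000 permutations within groups. After Benjamini-Hochberg adjustment 6 pairs passed, all among H2-Aa, H2-Ab1, H2-Eb1 and Cd74. The share of pairs among all genes tested that reach such r was not computed. Genes outside class II reached 0.862 (Jdp2) and 0.842 (Plekha3) with the mean standardized deviation of these genes. H2-Eb1 and Cd74 had r = 0.895 (permutation p = 0.00039, adjusted p = 0.00364) and rho = 0.864 (permutation p = 0.0008, adjusted p = 0.0056). H2-Aa and Cd74 had r = 0.885 (permutation p = 0.00038, adjusted p = 0.00364) and rho = 0.846 (permutation p = 0.00028, adjusted p = 0.00289). H2-Aa and H2-Eb1 had r = 0.878 (permutation p = 0.00011, adjusted p = 0.00308) and rho = 0.843 (permutation p = 0.00031, adjusted p = 0.00289). Thus Cd74, which differed from control in the opposite direction to H2-Eb1 and H2-Ab1, moved with them among samples of one group.

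Without the 2 samples farthest from the median these 3 values of r were 0.783, 0.763 and 0.739. H2-Ab1 had r = 0.80 with Cd74 (permutation p = 0.00076, adjusted p = 0.00532), 0.751 with H2-Eb1 (permutation p = 0.00311, adjusted p = 0.0174) and 0.624 with H2-Aa (permutation p = 0.00844, adjusted p = 0.0394), where rho was 0.875, 0.786 and 0.675 (permutation p = 0.00016, 0.00223 and 0.00821, adjusted p = 0.00289, 0.0125 and 0.0383). Leaving out 2 samples gave 0.741, 0.614 and 0.381, so the last rests on those samples. Ciita had r = 0.13 with H2-Aa, 0.16 with H2-Eb1, 0.56 with H2-Ab1 and 0.47 with Cd74, and none passed (adjusted p from 0.111 to 0.895). H2-DMb2 was between -0.25 and 0.08 with every other gene. All values of a sample share its library and its scaling.

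**Figure D4:**
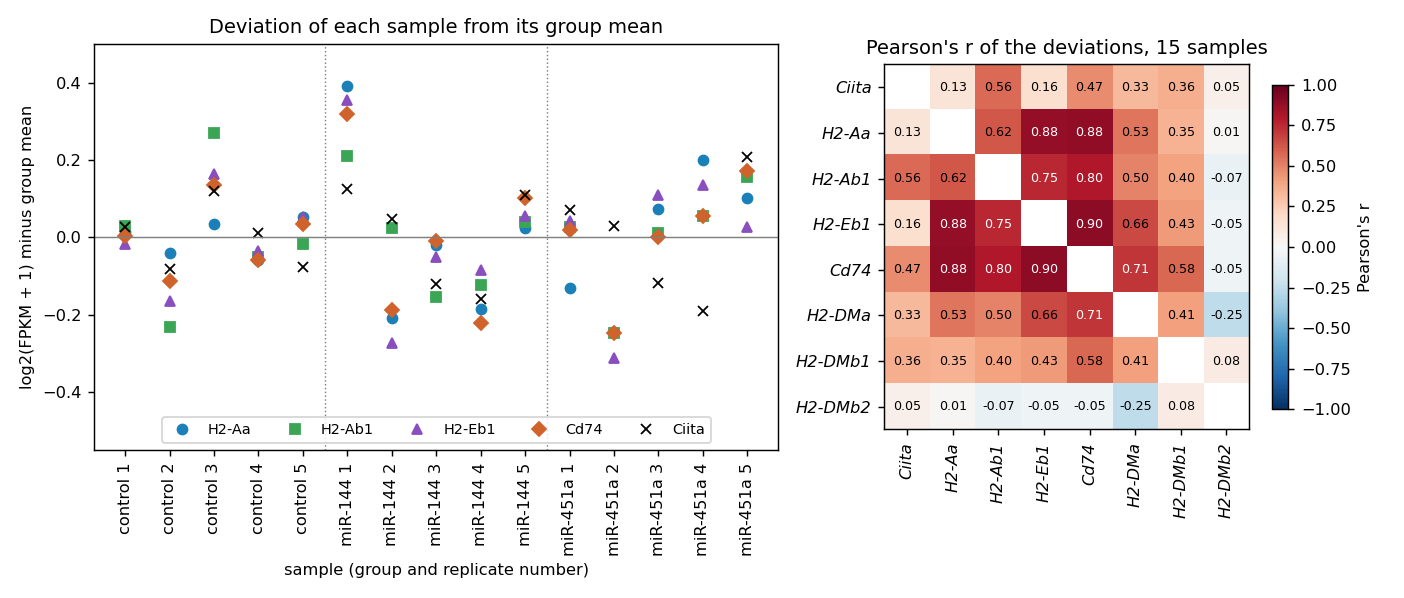
Left, deviation of log2(FPKM + 1) from the group mean for H2-Aa, H2-Ab1, H2-Eb1, Cd74 and Ciita in each of the 15 samples, with dotted lines between groups. Right, Pearson's r of these deviations for all pairs of the 8 genes, which reaches 0.90 between H2-Eb1 and Cd74 and stays between -0.25 and 0.08 for H2-DMb2; miR-144 replicate 1 is the highest sample for H2-Aa, H2-Eb1 and Cd74 and control replicate 3 for H2-Ab1, and miR-451a replicate 2 is the lowest for these 4 genes.

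Single samples carried much of this spread. miR-144 replicate 1 was the highest of its group for 6 of the 8 genes, although it was the highest for 19.7% of all genes tested. Control replicate 2 and miR-451a replicate 2 were the lowest of their groups for 6 of the 8 genes each, against 16.7% and 16.3% of all genes.

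The 10 genes most like H2-Aa, H2-Ab1, H2-Eb1 and Cd74 in these deviations (Pearson's r with the mean of their standardized deviations over 15 samples, given as a description) were Jdp2 (0.862), Plekha3 (0.842), Minos1 (0.837), Atp6v1f (0.834), Prdx5 (0.812), Cox6a1 (0.808), Tmem147 (0.805), Ywhag (0.794), Cyb5r3 (0.783) and Calr (0.782). None of them is a class II gene. Calr, a chaperone of the endoplasmic reticulum, had group means of 516, 238 and 224 FPKM in the control, miR-144 and miR-451a groups, and Jdp2, a transcription factor of the AP-1 family, 3.19, 4.22 and 4.62. Their differences from control were thus in opposite directions (-1.12 and 0.32 in the miR-144 group, adjusted p = 1.05e-12 and 4.25e-05, limma). The listed pathway and marker genes that were tested lay below all of these, from -0.58 for Ifngr1 and -0.48 for Rfx5 to 0.60 for B2m and 0.64 for Mif.

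Genes that act on class II transcription were measured as lists, whose counts are set against the 67.2% and 68.3% of all genes that passed. Of all genes, 47.1% and 48.1% were higher and 20.1% and 20.3% lower in the miR-144 and miR-451a groups. Among 7 factors that bind class II promoters, 4 were higher and 1 lower in the miR-144 group (median 0.23) and 4 were higher in the miR-451a group (median 0.20). Rfx5, a subunit of the RFX complex on the X1 box, rose from 2.09 ± 0.173 to 3.39 ± 0.3585 and 3.63 ± 0.683 FPKM (log2 difference 0.50 and 0.57, adjusted p = 0.000194 and 5.88e-05, limma). Rfxap, Creb1 and Nfyb also rose in both groups, and Nfya and Nfyc passed in neither. Rfxank was lower in the miR-144 group (-0.14, adjusted p = 0.0190) and did not pass in the miR-451a group (-0.04, adjusted p = 0.429), and the difference between the miRNA groups did not pass either (0.09, adjusted p = 0.952, limma).

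Of 7 genes on the route from interferon-gamma to Ciita, 4 were higher and 2 lower in the miR-144 group and 3 were higher and 2 lower in the miR-451a group. Ifngr1, the ligand-binding receptor chain, rose from 20.8 ± 0.470 FPKM to 41.5 ± 4.03 and 46.6 ± 4.38. The signal-transducing chain Ifngr2 fell (50.6, 40.5 and 40.1 FPKM), and so did the kinase Jak2 (22.7, 10.1 and 10.6 FPKM). Irf1 was at 20.7, 23.7 and 24.2 FPKM and did not pass (adjusted p = 0.1315 and 0.0896, limma). Receptor chains thus did not move one way.

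Among 4 genes that repress class II transcription or act on the turnover of class II at the surface, 2 were higher in both groups and 2 did not pass. March1, a ubiquitin ligase that sends class II molecules to lysosomes, rose from 4.47 ± 0.411 to 8.76 ± 1.499 and 9.32 ± 0.7575 FPKM (0.83 and 0.92, adjusted p = 1.24e-06 and 3.70e-07, limma). Prdm1, a repressor of Ciita, rose from 4.53 to 6.20 and 5.87 FPKM, while March8 and Cd83, which opposes the action of March1 on class II, did not pass.

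**Figure D5:**
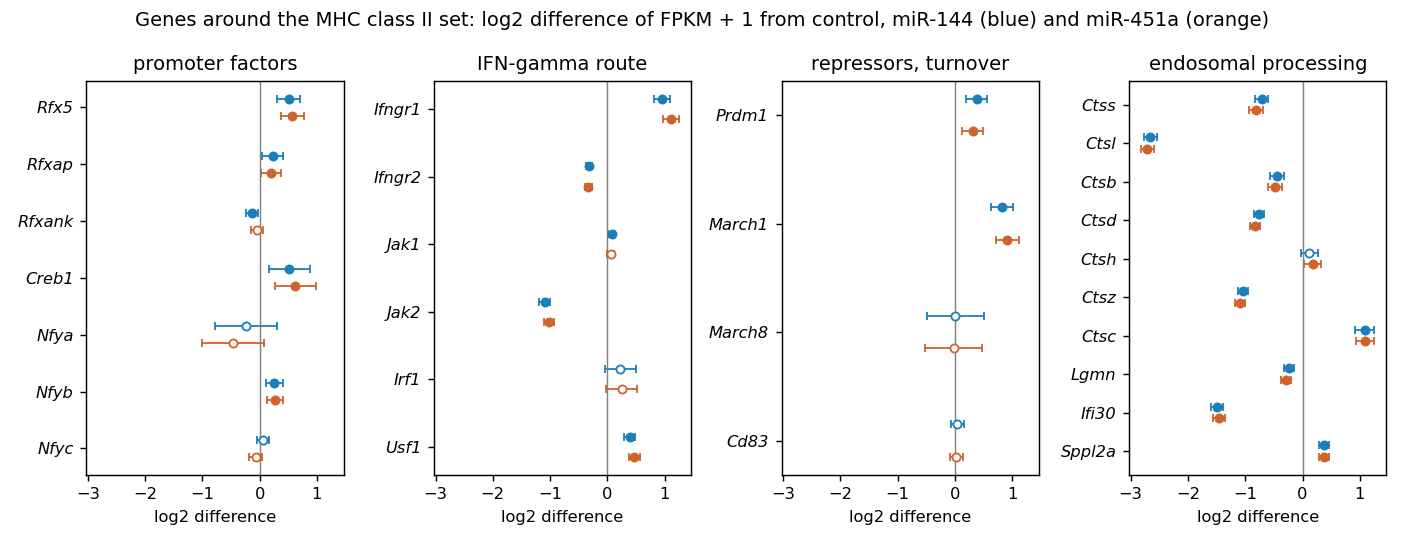
Log2 difference of FPKM + 1 from control TAMs, with 95% intervals from limma, for promoter factors, 6 genes of the interferon-gamma route, repressors and turnover genes and endosomal processing genes; filled circles passed at an adjusted p under 0.05, blue for miR-144 and orange for miR-451a. In endosomal processing 7 of 10 genes are left of 0 and passed in both groups (lower among all genes tested: 20.1% and 20.3%), with Ctsl farthest (-2.66 and -2.71), whereas Ifngr1 lies near 1 and Jak2 near -1.

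The endosomal enzymes that prepare antigen and degrade the invariant chain were mostly lower: 7 of 10 fell and 2 rose in the miR-144 group (median -0.58), and 7 fell and 3 rose in the miR-451a group (median -0.65). Of all genes tested, 20.1% were lower and 47.1% higher in the miR-144 group, and 20.3% and 48.1% in the miR-451a group. Ctss, the protease that makes the last cuts in the invariant chain, fell from 5141 FPKM to 3146 and 2928, in the same direction as Cd74. Ctsl, another protease of that step, fell from 437 ± 28.4 FPKM to 68.4 ± 4.38 and 65.8 ± 3.15, and Ifi30, the thiol reductase GILT, from 211 ± 14.25 to 74.0 ± 2.88 and 75.9 ± 4.83. Ctsc, a dipeptidyl peptidase, rose from 26.7 to 58.1 and 58.3 FPKM. Sppl2a, the intramembrane protease that clears the remnant of the invariant chain, rose from 20.1 to 26.5 and 26.4 FPKM (0.383 and 0.375 on the log2 scale, adjusted p = 7.70e-07 and 9.175e-07, limma).

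Cd74 also acts with MIF, CD44 and the chemokine receptors CXCR4 and CXCR2. Of the 3 of these tested, Cd44, the signaling partner, fell (50.8, 22.3 and 22.5 FPKM), Cxcr4 rose (112, 187 and 177 FPKM) and Mif, the ligand, did not pass (73.7, 64.4 and 66.9 FPKM, adjusted p = 0.06615 and 0.1845, limma), while Cxcr2 averaged at most 0.0804 FPKM. In MHC class I presentation 5 of 9 genes were higher and 3 lower in both groups. Of all genes tested, 47.1% and 48.1% were higher and 20.1% and 20.3% lower. B2m was at 2913, 2263 and 2215 FPKM and the peptide transporter Tap1 at 7.29, 13.4 and 13.6. The other class II rows averaged under 1 FPKM and were outside the 11419 genes. H2-Oa, a chain of the H2-DM antagonist, averaged 0.124, 0.196 and 0.235 FPKM and H2-Ob, its partner, 0.0204, 0.127 and 0.129, against up to 0.144 and 0.0723 FPKM for 3 fragments. In limma's fit with no minimum FPKM, H2-Ob was higher in both groups (adjusted p = 0.000147 and 0.00011), all control samples being under the level of 3 fragments, and H2-Oa was higher in the miR-451a group (adjusted p = 0.0314) and did not pass in the miR-144 group (adjusted p = 0.175).

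The label of the cells was checked against marker genes. All 7 macrophage markers were expressed in every sample and summed to 8657 to 9465 FPKM in control samples, 14630 to 16500 in the miR-144 group and 14330 to 15510 in the miR-451a group, 6 of them higher and 1 (Cd68) lower in both. Because other professional antigen-presenting cells also hold class II, their markers are given too. The 10 dendritic cell markers summed to 84.8 to 106 FPKM in control samples and to 3.76 to 5.41 and 3.86 to 4.58 in the miRNA groups, nearly all of it from Itgax (93.1, 3.63 and 3.43 FPKM), while Flt3, Zbtb46, Xcr1 and Clec9a averaged at most 0.258 FPKM in any group. The 7 B cell markers summed to 8.94 to 11.2, 77.4 to 92.8 and 85.2 to 101 FPKM, mostly from Ighm (9.30, 80.5 and 89.3 FPKM), while Ms4a1 and Pax5 averaged at most 0.00601 FPKM. Igkc (0.764, 1.49 and 1.59 FPKM, adjusted p = 0.0485 and 0.0296, limma) was higher in both groups, and so was Cd79b in the fit with no minimum FPKM (0.185, 1.15 and 1.38 FPKM, adjusted p = 1.67e-07 and 3.08e-08). In limma's fit with no minimum FPKM none of the other dendritic cell markers passed as lower, Siglech (0.0134, 0.203 and 0.157 FPKM, adjusted p = 0.000232 and 0.00203) and Dpp4 (0.00643, 0.0314 and 0.0388 FPKM, adjusted p = 0.0388 and 0.00868) were higher in both groups, and Itgae (miR-144, adjusted p = 0.0061) and Xcr1 (miR-451a, adjusted p = 0.0366) were higher in one. The summed levels of both lists moved with the groups, Itgax in the direction of Cd74 and Ighm in that of H2-Ab1, and their part in the class II values was not tested.

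The 4 monocyte markers summed to 2.39 to 3.75, 7.05 to 11.98 and 6.59 to 11.1 FPKM, and the 8 T and NK cell markers to 1.44 to 1.88, 5.69 to 8.95 and 5.41 to 9.51, mostly from Cd4, with Cd3e, Cd3g and Ncr1 at 0. Endothelial markers reached at most 5.93 FPKM in sum, neutrophil markers 1.15 and hepatocyte markers 0.253, with Alb, Apoa1, Ttr, Serpina1a and Apoc3 at 0 in every sample. The depth implied by the steps between low values was 15.5 to 30.4 M fragments per sample.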

How the data were processed

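TAMs sorted from orthotopic tumors were sequenced by the authors on an Illumina instrument, and 15 samples were used, 5 per group, grouped by the genotype given in the labels. The values deposited by the authors are in FPKM (fragments per kilobase of transcript and M mapped fragments), 1 for each gene in each sample. The submitters' processing notes name FastQC 0.11.2, STAR and StringTie. The genome build, the annotation and the strand setting are not given in the sources used here.

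FPKM values were used as deposited and transformed to log2(FPKM + 1). They are not counts, and at most 54.8% of low values lay on a step of 1 fragment, so no count model was run and the implied depth is approximate. A level of 3 fragments was taken as the floor of a gene and covers counting error only. limma 3.58.1 in R 4.3.3 fitted the 3 groups together with a mean-variance trend over the 11419 genes that averaged 1 FPKM or more. Ratios were compared by two-sided exact permutation tests over 252 splits. The scripts were tested on simulated data.

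The members, the gene lists and the tests were chosen with earlier results of these data known. Named genes are the 8 members, the listed pathway and marker genes (class II promoter factors, interferon-gamma route, repressors and turnover, endosomal processing, MIF partners, MHC class I, other class II, and macrophage, dendritic cell, monocyte, B cell, T and NK cell, neutrophil, hepatocyte and endothelial markers) and the 10 genes most like H2-Aa, H2-Ab1, H2-Eb1 and Cd74. Some listed genes are not reported here, while counts and sums over their lists include them. Itgam has 2 rows in the table, and that with the identifier of the annotation was used.

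Coordinates are those of GENCODE M21 (GRCm38), 1-based, and the build behind the deposited table may differ. Promoters come from RefSeq (GRCm38.p6). Python 3.11.15, numpy 2.4.6, pandas 2.3.3, scipy 1.17.1 and matplotlib 3.10.9 were used. Alternatives were a pseudocount of 0.1, median centring, TPM, quantile normalization, no minimum FPKM or a minimum of 5, no trend, only the 2 groups compared, the replicate block, and leaving out samples.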

Additional observations from a re-analysis of the deposited data

Results flagged for a closer look

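One value stood far from the others of its group. H2-Eb1 in miR-451a replicate 2 had 50.6 FPKM, and the gap to the nearest sample was 0.726 of the range of the group. Of 36 groups of 5 samples tested (8 genes and 4 ratios in 3 groups), 1 was marked, and chance marks about 1 in 20, or 1.8 of them. Without this sample H2-Eb1 was higher by 0.39 on the log2 scale in the miR-451a group (adjusted p = 0.00325, limma), against 0.31 with it.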

How the results depend on the processing

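For the genes, 29 alternatives were run in each comparison with control (28 for H2-DMb2, which is under the minimum of 5 FPKM). Cd74 passed in 29 and 29 of them, H2-Ab1 in 29 and 28, H2-Eb1 in 28 and 26, and H2-DMb2 in 26 and 26 in the miR-144 and miR-451a groups. The number of the 8 genes called was 3 to 6 in the miR-144 group and 1 to 5 in the miR-451a group, where median centring left 1. Median centring turned H2-DMa in the miR-144 group (-0.0282) and H2-Aa (-0.0125) and Ciita (-0.00691) in the miR-451a group, and TPM turned H2-DMb1 (0.0163 and 0.0585), none of which passed.

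With samples left out, H2-DMb1 ranged from -0.102 to 0.00600 in the miR-144 group and from -0.0652 to 0.0204 in the miR-451a group. Between the miRNA groups the ranges were -0.159 to 0.0673 for H2-Aa, -0.146 to 0.0110 for H2-Eb1, -0.0904 to 0.00921 for Ciita, -0.00269 to 0.139 for H2-DMa and -0.00951 to 0.0783 for H2-DMb1, with no call. They were -0.155 to -0.00604 for Cd74, -0.119 to -0.00689 for H2-Ab1 and 0.00355 to 0.0995 for H2-DMb2, also with no call. Log2 ratios between the miRNA groups ranged from -0.0635 to 0.0261 for Cd74 to H2-Ab1, from -0.0575 to 0.0470 for H2-Ab1 to H2-Aa, from -0.0498 to 0.144 for H2-DMb2 to H2-DMb1 and from -0.0426 to 0.106 for H2-DMa to H2-DMb1. Against control, H2-DMb2 to H2-DMb1 ranged from 0.301 to 0.423 (miR-144) and from 0.327 to 0.521 (miR-451a), and H2-Ab1 to H2-Aa from 0.177 to 0.285 (miR-451a).

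Deviations of same-numbered samples had correlations from -0.15 to 0.264 over 15 pairs of samples, 8 of them over 0.1, and the best match of a sample in another group had its number in 12 of 30 cases, where 6 would match if the number had no bearing. All 3 pairs with the number 4 were over 0.1 (0.1075, 0.264 and 0.241). Since not every pair was over 0.1 and no label gives a shared batch, the numbers were not taken to pair the samples, and whether they do is not settled. With the replicate block, limma called 5 of the 8 genes in the miR-144 group (Ciita joined), 4 in the miR-451a group and 0 between the miRNA groups. For ratios the block allows no p under 0.0625, so that -0.77 and -0.78 for Cd74 to H2-Ab1 and 0.38 for H2-DMb2 to H2-DMb1 (miR-144) had an adjusted p of 0.188. Depth was inferred, and H2-DMb2 is the gene it limits most.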

Other observations

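The ratio of Cd74 to H2-Ab1 was almost constant over the 5 miR-451a samples (5.93 ± 0.0408, SD), although H2-Ab1 itself ran from 89.1 to 118.2 FPKM and Cd74 from 529 to 708 FPKM in them. The SD of this ratio was 0.672 in control samples and 0.611 in the miR-144 group. The difference in spread was not tested.

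In the miR-144 and miR-451a groups the H2-DMa values fell into a lower and a higher part, with 11.9, 11.8 and 13.1 against 17.2 and 16.6 FPKM, and 11.4 and 12.4 against 17.1, 16.6 and 16.3 FPKM, while the 5 control samples lay between 11.8 and 13.9 FPKM. Replicates 1 and 3 were in the higher part in both groups, and control replicates 3 and 1 (13.90 and 13.25 FPKM) were the highest of the control samples. The gene overlaps others on the opposite strand, and their part in this was not tested.

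Tapbp, the class I peptide-loading chaperone, fell (129, 87.6 and 87.0 FPKM) while Nlrc5, the class I counterpart of Ciita, rose (6.99, 13.2 and 12.8 FPKM, log2 difference 0.83 and 0.79, adjusted p = 2.03e-06 and 3.66e-06, limma).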
